A study of Canis lupus familiaris with 55 samples.

Results

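SOX9, its SOXE relatives SOX8 and SOX10, and the Sertoli cell genes DMRT1, PTGDS and TESC were followed by RNA-seq in embryonic gonads of a canine pedigree in which XX dogs develop testes or ovotestes without SRY, a condition called XX disorder of sex development (XX DSD). The members were the loci whose gene name in the authors' transcript assembly equals one of these symbols, which gave 6 of 58781 loci. XX DSD gonads at risk came from American cocker spaniel and beagle crosses (9 embryos at gestational day 35 (d35), 8 at d37-39 and 6 at d41-44), with XY littermate controls from the same pedigree (4, 5 and 3 embryos at those ages). XX age-matched controls (6 at d37-39 and 3 at d44) and XY age-matched controls (6 and 3) came from beagle parents, and there was no XX age-matched control at d35. Gonads of d34 control embryos were combined into 1 XX and 1 XY pool, from parents described as a beagle and Labrador retriever mix.

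The limits of the groups matter for what follows. Embryos at risk carried 1 or 2 copies of an insertion that marks the risk haplotype, and so did the XY littermates. The age-matched controls came from parents without it. All XX DSD gonads of d41-44 carried 2 copies and younger ones 1 or 2, so copies and age are mixed in comparisons of ages. No histology could be done on the same gonads, and it is not known which XX gonad would have formed testis tissue. Libraries were pooled for sequencing by group, so pedigree, breed, insertion and sequencing pool cannot be told apart. The XX DSD gonads of d41-44 were 2 of d41, 1 of d42, 2 of d43 and 1 of d44. The XY littermates of that group were of d41 and d42. Both are set against controls of d44, so gestational day differs there too. The paper's sample list puts the embryos labelled d41 at an earlier day, and its methods place them in the older group by developmental criteria. XX DSD gonads came from 4 litters at each age, the d44 controls from 1 litter, and at d37 each group was 1 litter. Each library other than the 2 pools is the gonad pair of 1 embryo (53 libraries of 55), and in such bulk samples fewer cells of a type and less RNA per cell cannot be told apart.

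In the mammalian gonad the supporting cell precursor becomes a Sertoli cell in a testis or a granulosa cell in an ovary. SRY starts the testis route by raising SOX9, and SOX9 then holds its own level with the help of FGF9 and of prostaglandin D2, while WNT4, RSPO1 and FOXL2 oppose it in the ovary. In XX mice, forced gonadal SOX9 or SOX10 is enough to form testes.

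Each member was a single locus of the CanFam3 assembly. SOX9, the SOXE factor that drives Sertoli cell differentiation, lay on chromosome 9 at 8275049-8280390, plus strand, with 3 exons. PTGDS, the lipocalin-type prostaglandin D synthase, lay on the same chromosome at 48647298-48650753, minus strand. SOX8, which acts beside Sox9 in mouse Sertoli cells, lay on chromosome 6 at 39667823-39672638, minus strand, and SOX10, better known from neural crest and glia, on chromosome 10 at 26680432-26696275, plus strand. DMRT1, a DM-domain factor that keeps Sertoli cell identity in mice and is also found in germ cells, lay on chromosome 1 at 89677523-89790938, plus strand. TESC, the calcium-binding protein tescalcin first described from the mouse embryonic testis, lay on chromosome 26 at 13645449-13706431, minus strand. SOX8 and SOX10 each overlapped 1 locus on the opposite strand, and since the library kit did not mark strand, reads of the overlap cannot be assigned. The spans cover exons, introns and untranslated regions together.

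Expression is given as FPKM, fragments mapped to a transcript scaled by its length and by the size of the library. This is meant to let levels be compared between genes and between samples. Some differences between groups still changed with further scaling, as given below. Read counts were not among the values used, but the smallest non-zero values gave each library's depth relative to the deepest library. Depth differed 6.58-fold between the deepest and the shallowest library. All d41-44 libraries of the pedigree were shallow (0.238 to 0.298 of the deepest for XX DSD, 0.253 to 0.292 for XY littermates), against 0.615 to 0.856 in XX controls and 0.401 to 0.592 in XY controls at d44. Among XX DSD gonads at d37-39 depth was between 0.245 and 0.892, and the 2 d37 embryos, C3512 (0.245) and C3515 (0.267), were the shallowest. In 4 XY libraries of d37-39 (littermates C3627, C3637 and C3638 and control A1099), 6201 to 8064 loci without a gene name reached 1 FPKM, against 1884 to 4356 in every other library. Values without them are given where they change a result. Such fits keep C3516 and C3626 as the only XY littermates of d37-39.

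SOX9, SOX10 and DMRT1 separated XX from XY gonads at every age and in both pedigrees, and the XX DSD gonads were on the XX side for each of the 3. SOX9 was between 0.853 and 10.4 FPKM in the 32 XX embryos (median 3.72), against 52.5 to 92.8 FPKM in the 21 XY embryos (median 69.0). The highest XX value was therefore below the lowest XY value by a wide margin. SOX10 was between 0 and 1.63 FPKM in XX embryos (median 0.125) and between 1.52 and 15.98 FPKM in XY embryos (median 6.86). Within each age and pedigree the SOX10 groups did not overlap, and the single value shared in range was an XX DSD gonad of d35 against an XY littermate of d37-39. DMRT1 was between 0.753 and 9.73 FPKM in XX embryos (median 4.42), against 10.9 to 42.4 FPKM in XY embryos (median 20.3).

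**Figure D1:**
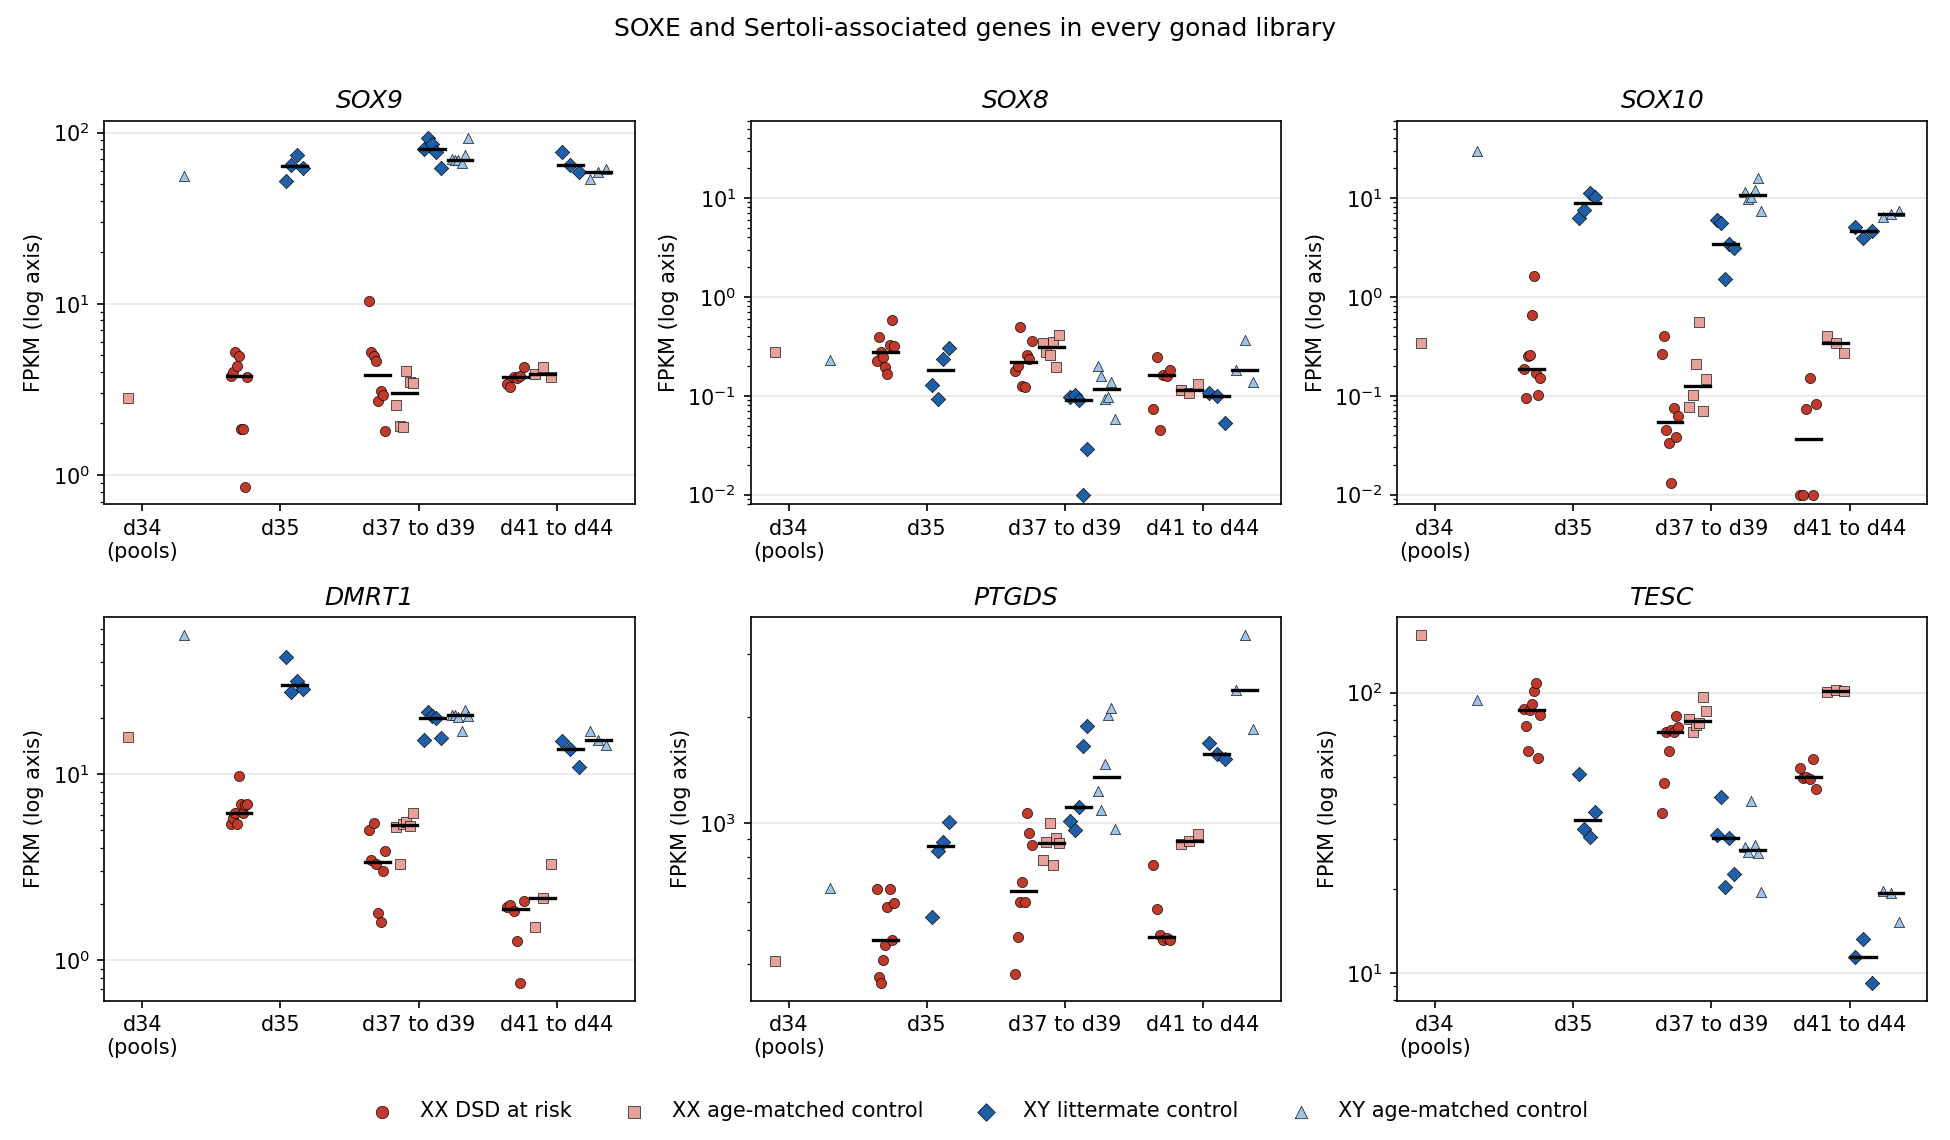
FPKM of each of the 6 members on a log axis (values of 0 drawn at 0.01), by gestational age, with 1 point per library and a black bar at the group median; within an age the order is XX DSD, XX control, XY littermate, XY control, and d34 holds 1 pool per sex. SOX9, SOX10 and DMRT1 sit lower in XX gonads of both pedigrees than in XY gonads of the same age, TESC sits higher, and SOX8 stays under 0.6 FPKM throughout.

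The size of the sex difference in SOX9 was near the same in the pedigree at each age. XX DSD gonads averaged 3.40 ± 1.52 FPKM at d35 (SD, n = 9) against 63.4 ± 8.88 FPKM in XY littermates (n = 4), an 18.6-fold lower level. At d37-39 the XX DSD mean was 17.8-fold below that of XY littermates, and at d41-44 18.1-fold. In the controls XX gonads were 25.3-fold below XY gonads at d37-39 and 14.7-fold at d44. On the log2(FPKM + 1) scale used for tests, the differences were -3.96, -4.00 and -3.85 in the pedigree (limma, Benjamini-Hochberg adjusted p = 9.07e-07, 2.68e-07 and 3.45e-08) and -4.28 and -3.57 in the controls (adjusted p = 6.88e-10 and 1.12e-05).

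PTGDS was the most abundant member in every library and differed less between the sexes. XX embryos had 353 to 1070 FPKM (median 625) and XY embryos 544 to 3414 FPKM (median 1475), so the ranges overlapped. PTGDS was lower in XX DSD gonads than in XY littermates at d35 (log2 change -0.70, limma adjusted p = 0.0268), at d37-39 (-0.94, adjusted p = 0.0450) and at d41-44 (-1.59, adjusted p = 1.07e-04), and the groups overlapped at both younger ages. Those earlier calls were not stable. At d35 the call was lost without XY littermate C3617, C3618 or C3619 (adjusted p 0.0770 to 0.110), and at d37-39 it held in 4 of 13 fits with 1 library left out, those without C3626, C3632, C3633 or C3642 (0.0259 to 0.116 over the 13). With litter as a fixed block the d35 change was -0.33 (adjusted p = 0.512). Over the settings tried adjusted p was between 0.0122 and 0.512 at d35 and between 7.61e-04 and 0.514 at d37-39. In controls PTGDS was lower in XX gonads at d37-39 (-0.71, limma adjusted p = 0.0113) and at d44 (-1.46, adjusted p = 0.00531).

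TESC did not follow its label as a Sertoli cell gene. It was higher in XX embryos (37.1 to 108 FPKM, median 75.8) than in XY embryos (9.20 to 51.1 FPKM, median 26.9). XX DSD gonads exceeded XY littermates by 2.21-fold at d35, 2.23-fold at d37-39 and 4.52-fold at d41-44 (limma adjusted p = 4.51e-04, 0.00237 and 2.64e-06), and XX controls exceeded XY controls by 2.86-fold at d37-39 and 5.61-fold at d44 (adjusted p = 3.95e-06 and 6.61e-05). At d37-39 the pedigree groups overlapped, since C3512 had 37.1 FPKM while the highest XY littermate had 42.4 FPKM. Without the 4 XY libraries with many unnamed loci, the XX DSD against XY littermate difference of TESC at d37-39 was 0.79 log2 (limma adjusted p = 0.15; 3.32e-07 to 0.15 over the settings tried), where it was 1.14 with them.

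SOX8 was near the floor of detection in every gonad. It reached at most 0.588 FPKM in XX embryos (median 0.230) and at most 0.362 FPKM in XY embryos (median 0.102), so no group mean passed the 1 FPKM filter for the test across loci. As a single value it was higher in XX than in XY controls at d37-39 (0.304 against 0.124 FPKM; exact two-sided permutation p = 0.00433, n = 6 each) and higher in XX DSD gonads than in XY littermates at d37-39 (0.245 against 0.0638 FPKM; exact permutation p = 0.00544, n = 8 and 5). The XX controls of d44 went the other way, with 0.118 FPKM against 0.227 FPKM in XY controls (exact permutation p = 0.10, the smallest that 20 arrangements allow, n = 3 each). These did not overlap, beside 20.2% of loci over the filter that were wholly lower in XX controls there. XX DSD gonads and XY littermates did not pass at d35 or d41-44 (exact permutation p = 0.131 and 0.262). These belong to a family of 20 such tests on SOX8 and SOX10 and are not adjusted. The reads behind these low levels are not known.

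Across the loci tested, 21.4% differed between XX DSD gonads and XY littermates at d35, 7.49% at d37-39 and 28.3% at d41-44, and 26.5% and 24.8% between XX and XY controls at d37-39 and d44. In each of the 5 comparisons all 5 members that passed the filter were called, 4 lower and 1, TESC, higher in XX gonads. SOX10 passed the filter through the XY gonads alone, with XX group means of 0.0510 to 0.389 FPKM. Its place among the members called lower therefore follows in part from the filter. In the same order of comparisons, 13.1%, 4.09%, 15.5%, 13.8% and 12% of loci were called lower in XX gonads, and 8.3%, 3.41%, 12.8%, 12.7% and 12.8% higher. SOX9, SOX10 and DMRT1 had groups without overlap in all 5, with 8.14%, 3.46%, 15.9%, 8.63% and 20.2% of loci wholly lower in XX gonads.

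The main comparison of the study asked whether the XX DSD gonads at risk differed from XX gonads of the same age. At d37-39 no member passed the limma test used here, although SOX9 spread more widely in XX DSD gonads than in controls. The paper used another test (cuffdiff) and reported SOX9 as significantly higher in XX DSD gonads at that age. It placed this rise below its stringent fold criterion and ascribed it mainly to embryo C3512. SOX9 in the 8 XX DSD gonads was 10.4 and 5.23 FPKM at d37 (C3512 and C3515) and 4.93, 4.64, 2.72, 3.09, 2.92 and 1.797 FPKM at d39. XX controls had 2.58, 1.92 and 1.90 FPKM at d37 and 4.06, 3.50 and 3.44 FPKM at d39. Of the XX DSD gonads 4 of 8 lay above the highest control, and the rest lay within the control range or below it. The mean was 4.47 ± 2.70 FPKM in XX DSD gonads (SD, n = 8) and 2.90 ± 0.90 FPKM in XX controls (n = 6), a log2 change of 0.39 (SE 0.27, 95% interval -0.17 to 0.96, limma adjusted p = 0.428).

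**Figure D2:**
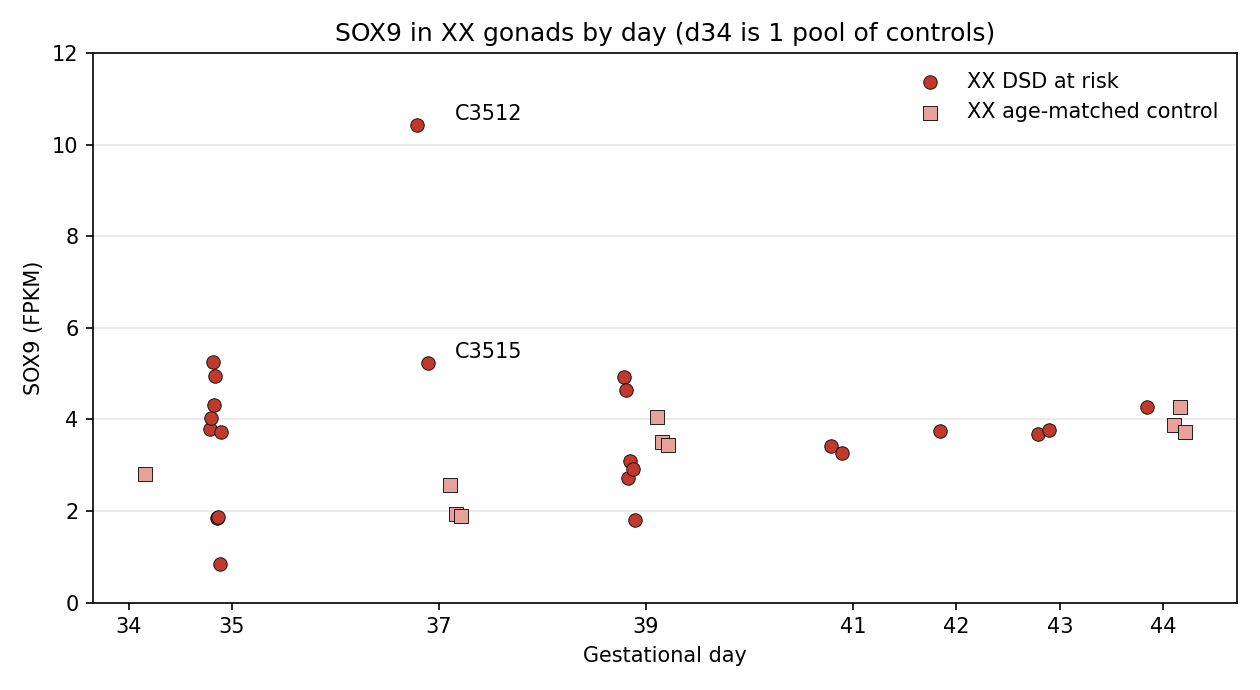
SOX9 FPKM in each XX gonad against gestational day, XX DSD gonads and XX age-matched controls. Embryo C3512 stands at 10.4 FPKM and its littermate C3515 at 5.23 FPKM, both above the 3 d37 controls, while at d39 and from d41 on the values of both groups share the range below 5 FPKM.

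The days of that age group gave different SOX9 values, a difference that was not itself tested. At d37 alone both XX DSD gonads lay above all 3 XX controls, with a log2 change of 1.44 (SE 0.29, limma adjusted p = 0.0227, n = 2 and 3), but each group was 1 litter, so litter and pedigree cannot be told apart, and 31.9% of all loci tested were called in that fit. PTGDS (-1.07) and TESC (-0.85) were lower in the same 2 embryos (limma adjusted p = 0.0098 for each). At d39 alone the SOX9 change was -0.15 (limma adjusted p = 0.693, n = 6 and 3) and no member was called. Across all settings SOX9 at d37-39 had an adjusted p between 0.0227 and 0.730, and no single library left out brought a call (0.202 to 0.602).

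Other Sertoli genes in the same 2 embryos were mixed. Of 10 genes of a Sertoli list that passed the filter, C3512 had 7 above the highest XX control of d37-39 (FGF9, CLDN11, INHBB, ETV5, FSHR, CLU and TF) and C3515 had 5, while the other 6 XX DSD gonads of that age had 1 to 4. Of all loci tested, 22.4% in C3512 and 21.5% in C3515 lay above every control, and 16.5% to 27.4% in the other 6. COL9A3 was below every control in all 8, and the summed level of the Sertoli list was 384 FPKM in C3512 and 253 FPKM in C3515, against 211 to 391 FPKM in the other XX DSD gonads and 185 to 237 FPKM in XX controls. CLDN11, a tight junction protein of Sertoli cells, was 12.98 FPKM in C3512, and INHBB, the inhibin beta B chain, was 11.8 FPKM, levels that were far below the XY control means of 122 and 160 FPKM. AMH, the Sertoli hormone that removes the Müllerian ducts, was not high there (11.7 FPKM in C3512 and 10.9 FPKM in C3515, against 7.90 to 17.3 FPKM in XX controls). The summed level of a cartilage list, since SOX9 also marks chondrocytes, was 63.7 FPKM in C3512 and 56.3 FPKM in C3515, within the control range of 31.7 to 74.8 FPKM.

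The remaining members were lower in XX DSD gonads at d37-39 by amounts that missed the threshold. DMRT1 was 1.61 to 5.42 FPKM in XX DSD gonads (median 3.36), against 3.27 to 6.19 FPKM in XX controls (median 5.30), with a log2 change of -0.52 (95% interval -0.95 to -0.08, limma adjusted p = 0.112). PTGDS was 374 to 1070 FPKM in XX DSD gonads (median 641), against 764 to 998 FPKM in XX controls (median 881), a change of -0.38 (adjusted p = 0.271). TESC was 37.1 to 82.8 FPKM (median 72.2) against 72.6 to 96.2 FPKM in XX controls (median 79.4), a change of -0.35 (adjusted p = 0.171). All 3 had overlapping groups. SOX8 (exact permutation p = 0.290) and SOX10 (exact permutation p = 0.381; 0.0130 to 0.401 FPKM in XX DSD gonads against 0.0696 to 0.559 FPKM in XX controls) did not pass either. The count of 0 of 4 members tested stood beside 13.8% of all loci called in this comparison.

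At d41-44 SOX9 of XX DSD gonads lay at the level of the XX controls. The 6 XX DSD gonads had 3.27, 3.41, 3.68, 3.75, 3.77 and 4.28 FPKM, and the 3 XX controls of d44 had 3.73, 3.87 and 4.28 FPKM. The groups overlapped, and the log2 change was -0.08 (SE 0.08, 95% interval -0.26 to 0.10, limma adjusted p = 0.438). Quantile normalization gave 0.063 and the annotated gene table -0.02 (SE 0.08), so the upper bound depends on the fit. A change in a few cells of 1 gonad could not be seen in a level over the whole gonad.

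TESC and PTGDS were the members that differed at d41-44, both lower in XX DSD gonads. TESC was 54.0, 49.4, 50.1, 49.2, 58.0 and 45.2 FPKM in the XX DSD gonads and 100.4, 101.8 and 101.1 FPKM in the XX controls. The groups did not overlap, and the XX DSD mean was 50.4% of the control mean (log2 change -0.98, SE 0.07, 95% interval -1.14 to -0.82, limma adjusted p = 1e-05). PTGDS was 762 FPKM in C3694 and 466 to 573 FPKM in the other XX DSD gonads, and 871, 888 and 930.0 FPKM in the XX controls. These did not overlap either, as 28.1% of loci did not in that direction (log2 change -0.76, SE 0.15, limma adjusted p = 0.00254). Both calls held under every setting and with each library left out, but in this comparison 48.5% of all loci tested were called and 29.2% were called lower, beside 2 of 4 members called lower.

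In XX DSD gonads TESC moved with depth. Of the XX DSD gonads, the 9 under 0.3 of the deepest library had 37.1 to 58.4 FPKM (median 49.4) and the 14 deeper ones 62.0 to 108 FPKM (median 79.5), with no overlap, and the single XX control under 0.3 had 80.6 FPKM against 72.6 to 102 FPKM in the 8 deeper controls. Shallow XY controls of d37-39 went both ways, with the highest TESC of that group in A1100 (depth 0.173, 41.2 FPKM) and the lowest in A1095 (depth 0.257, 19.4 FPKM). PTGDS in XX DSD gonads was 374 to 762 FPKM (median 472) under a depth of 0.3 and 353 to 1070 FPKM (median 599) above it. All 6 XX DSD gonads of d41-44 are among the shallow ones and all 3 XX controls of d44 among the deep ones. At that age depth, pedigree and sequencing pool therefore cannot be told apart. Gestational day differs too, since only 1 of these XX DSD gonads was of d44. The shallow XX DSD gonads also differ in age and litter, being the 6 of d41-44, the 2 d37 littermates and 1 of d35, while the deeper ones are of d35 and d39. SOX9 showed no such split (0.853 to 10.4 FPKM, median 3.75, in shallow libraries and 1.797 to 5.25 FPKM, median 3.75, in deeper ones).

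**Figure D3:**
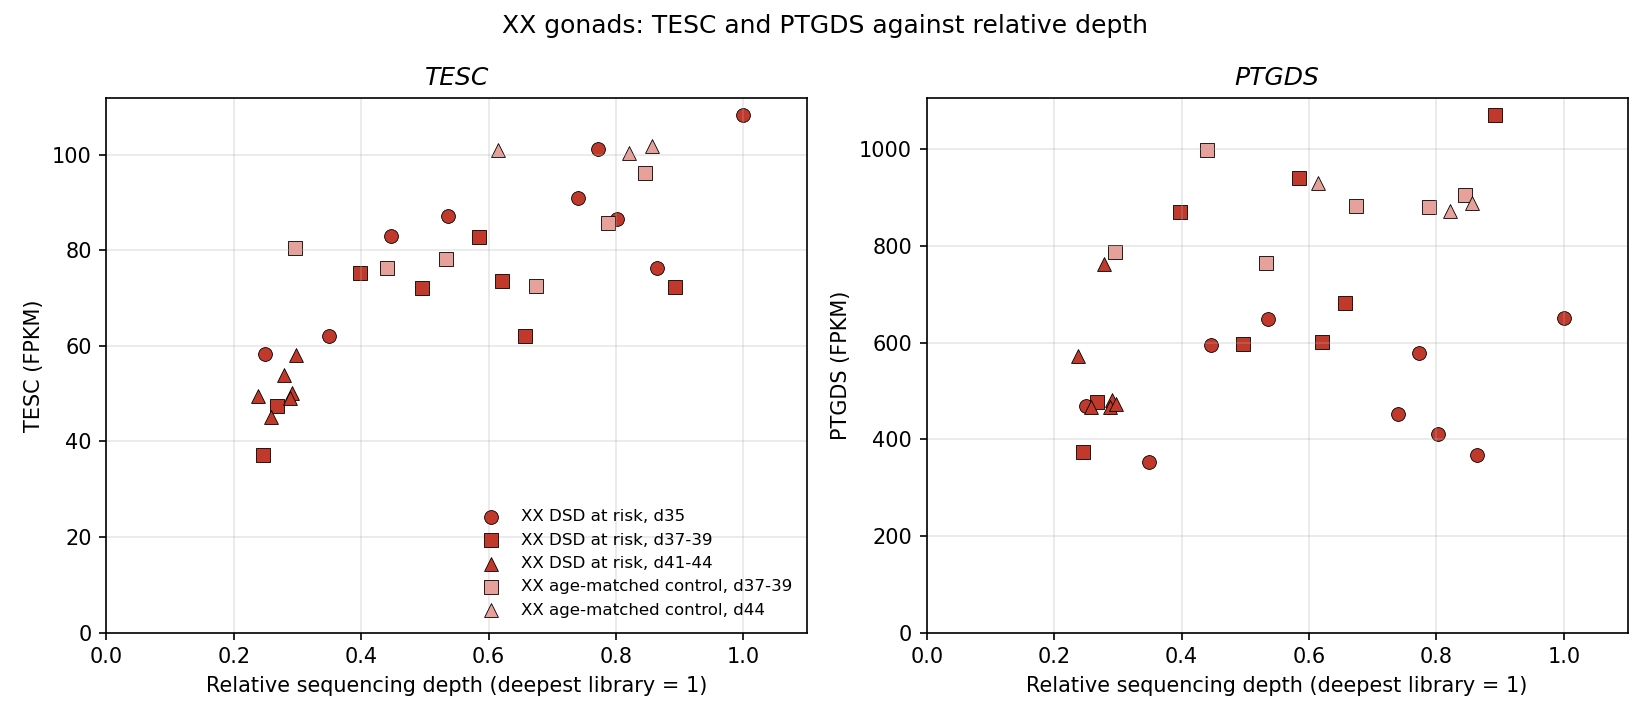
TESC and PTGDS FPKM of every single-embryo XX gonad against the depth of its library relative to the deepest one, XX DSD and XX controls. The 9 XX DSD gonads under a relative depth of 0.3 hold 37.1 to 58.4 FPKM of TESC, below the 62.0 to 108 FPKM of the other 14, and 1 control of similar depth stands at 80.6 FPKM.

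SOX10 was also lower in XX DSD gonads at d41-44, at levels near the floor. It was listed at 0 in 3 of 6 XX DSD gonads and at 0.0728, 0.0826 and 0.151 FPKM in the rest, against 0.399, 0.342 and 0.269 FPKM in XX controls. The groups did not overlap (exact two-sided permutation p = 0.0119, unadjusted, the smallest that 84 arrangements allow). Limma with no filter on low values gave adjusted p = 0.00243. Among loci that passed the filter, 28.1% were wholly lower in this comparison and 48.5% were called, so such a separation was common. Since the XX DSD libraries are also the shallow ones, a listing at 0 says only that no fragment was assigned. DMRT1 was 0.753 to 2.07 FPKM in XX DSD gonads and 1.51, 2.15 and 3.28 FPKM in XX controls, a log2 change of -0.32 (limma adjusted p = 0.276).

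XY littermates were set against XY age-matched controls to see whether the pedigree differs in gonads that follow the testis route. SOX10 was the member that differed. At d37-39 it was 5.99, 5.58, 1.52, 3.42 and 3.08 FPKM in XY littermates and 7.28 to 15.98 FPKM in the 6 XY controls (median 10.7), without overlap. The mean was 3.92 ± 1.86 FPKM in XY littermates (SD, n = 5) and 11.1 ± 2.90 FPKM in XY controls (n = 6), 35.5% of the control mean (log2 change -1.35, SE 0.27, limma adjusted p = 0.0432, beside 1.29% of loci called, 0.885% called lower and 1.3% wholly lower without overlap). This call was not stable. With 1 library left out it held in 2 of 11 fits, those without C3516 or A1095 (adjusted p 0.0121 to 0.116 over the 11). Without the 4 libraries with many unnamed loci the change was -0.82 (limma adjusted p = 0.393, with 3.78e-06 to 0.487 over the settings tried). That fit kept only littermates C3516 and C3626, which had the highest SOX10 of their group (5.99 and 5.58 FPKM).

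At d41-44 SOX10 was 5.02, 3.90 and 4.66 FPKM in XY littermates and 6.38, 6.86 and 7.27 FPKM in XY controls. The groups did not overlap (log2 change -0.51, SE 0.12, limma adjusted p = 0.0488, beside 11.2% of loci called, 8.58% called lower and 23% wholly lower), and every library left out ended the call (adjusted p 0.0811 to 0.161; 0.0110 to 0.142 over the settings). None of the 4 libraries with many unnamed loci is in this comparison.

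SOX9, DMRT1, PTGDS and TESC did not pass the test between XY littermates and XY controls, although TESC and PTGDS did at d41-44 with litter as a random block (adjusted p = 0.0128 and 0.0331), and TESC also with a 4 FPKM filter, with all libraries in 1 fit and over named loci. SOX9 changed by 0.11 log2 at d37-39 (80.6, 92.5, 85.9, 77.0 and 62.4 FPKM in XY littermates, 66.2 to 92.8 FPKM in XY controls; limma adjusted p = 0.510) and by 0.20 at d41-44 (76.7, 64.9 and 59.3 FPKM against 53.6, 58.9 and 61.6 FPKM; adjusted p = 0.343). At d41-44 TESC was 11.4, 13.2 and 9.20 FPKM in XY littermates and 19.6, 19.2 and 15.2 FPKM in XY controls, without overlap (-0.64, adjusted p = 0.0575). PTGDS was 1683, 1573 and 1520 FPKM in XY littermates and 2383, 3414 and 1849 FPKM in XY controls (-0.63, limma adjusted p = 0.120). It did not overlap either, as 23% of loci did not in that direction. The values of TESC and PTGDS were thus below those of the controls in XY gonads as in XX gonads at that age. Calls in XY gonads came under the settings named above alone, and all pedigree libraries of that age were shallow. In the d37-39 comparison of XY gonads the median of all loci tested was 0.34 log2 higher in littermates and the upper quartile 1.25 higher. The SOX9 change was -0.62 after scaling to the upper quartile and -0.83 after quantile normalization, against 0.11 without scaling.

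**Figure D4:**
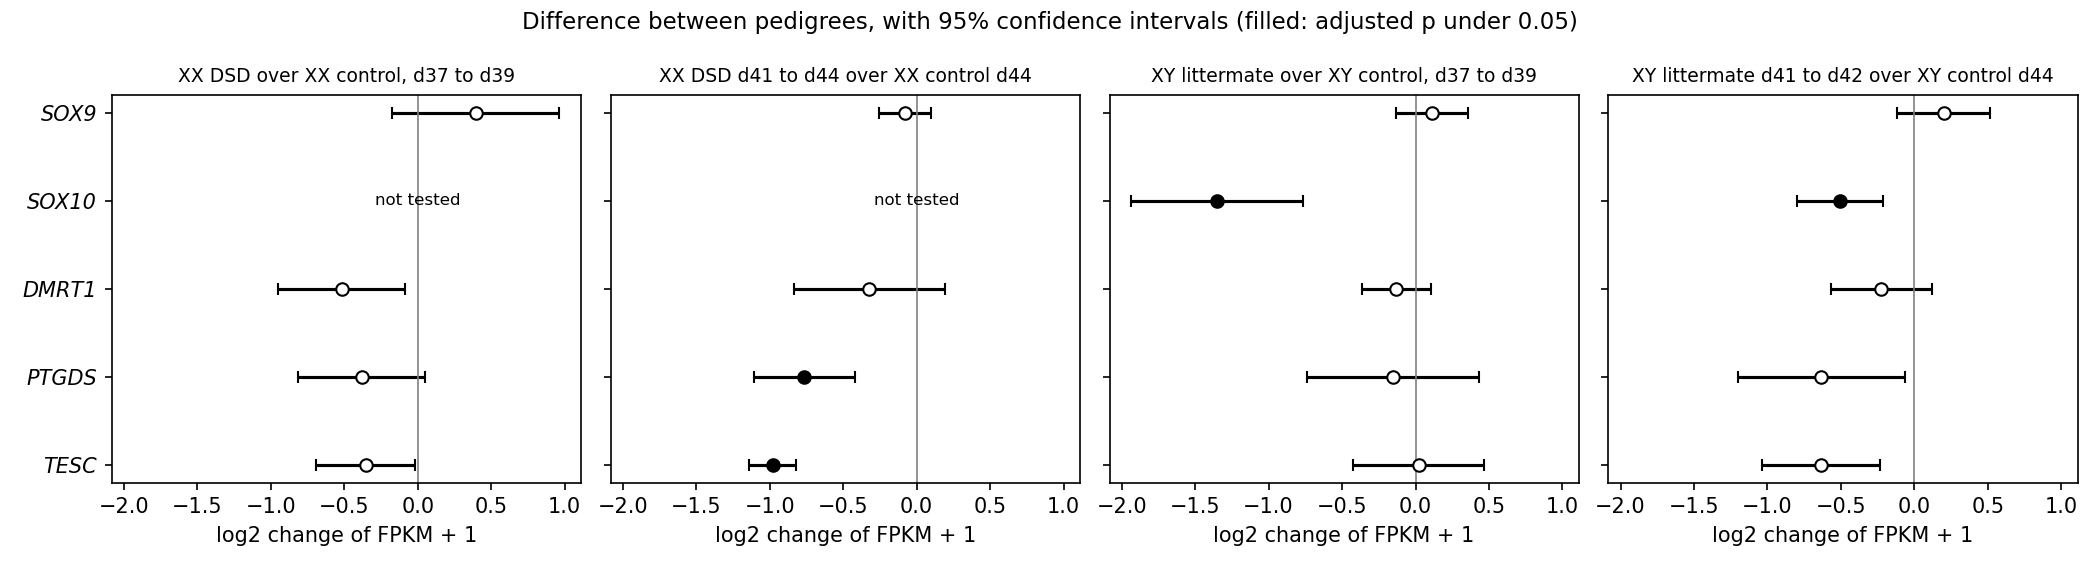
Log2 change of FPKM + 1 with its 95% interval for the members that passed the 1 FPKM filter in each of 4 comparisons (SOX8 in none, SOX10 in the XY ones alone), XX DSD against XX control and XY littermate against XY control, at d37-39 and at d41-44; filled points passed the limma test at an adjusted p of 0.05. PTGDS and TESC were called in XX gonads at d41-44 and SOX10 in XY gonads at both ages, while the SOX9 interval includes 0 in all 4.

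Whether the pedigree effect differed between XX and XY gonads was tested as an interaction. No member was called at either age, beside 0.00514% of loci at d37-39 and 0.115% at d41-44. For SOX9 the interaction was 0.28 log2 at d37-39 (95% interval -0.38 to 0.94, limma adjusted p = 0.748) and -0.28 at d41-44 (95% interval -0.57 to 0.01, adjusted p = 0.401). For TESC at d41-44 it was -0.34 (95% interval -0.69 to 0.01, adjusted p = 0.40).

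With age DMRT1 fell in both sexes of the pedigree and in XX controls. XX DSD gonads had a median of 6.14 FPKM at d35, 3.36 FPKM at d37-39 and 1.88 FPKM at d41-44. The step between d35 and d37-39 passed the test (log2 change -0.82, limma adjusted p = 0.00862, beside 4.87% of loci) and the step to d41-44 did not (-0.71, adjusted p = 0.0724, beside 2.73%). In XY littermates DMRT1 was 15.2, 21.6, 20.5, 19.9 and 15.5 FPKM at d37-39 against 42.4, 27.7, 31.5 and 28.4 FPKM at d35, without overlap (-0.77, adjusted p = 0.0122, beside 11.5% of loci called and 10.7% wholly lower), and it was 14.97, 13.6 and 10.9 FPKM at d41-44 (-0.46, adjusted p = 0.323). The XY call was lost by quantile normalization and without the littermates with many unnamed loci. In XX controls d44 was lower than d37-39 (-0.90, limma adjusted p = 0.0459, beside 2.61%), a call that held in 1 of 9 fits with 1 library left out, the one without A1098 (adjusted p 0.0305 to 0.177 over the 9).

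The other members did not pass between ages, and in XY controls, where 0.138% of loci were called, no member did. In the annotated gene table SOX9 was higher in XY littermates at d37-39 than at d35 (0.41, limma adjusted p = 0.0371, beside 35.1% of genes called there). SOX9 medians in XX DSD gonads were 3.79, 3.86 and 3.71 FPKM at d35, d37-39 and d41-44. At d35 the 9 XX DSD gonads already spread between 0.853 FPKM (C3575, the shallowest of them) and 5.25 FPKM, and 4 littermates alone covered 0.853 to 4.32 FPKM. TESC in XY littermates was lower at d41-44 than at d37-39 without overlap (-1.27, adjusted p = 0.225, beside 0.0348% of loci called and 4.48% wholly lower). SOX10 in XY littermates was lower at d37-39 than at d35 without overlap (-1.05, limma adjusted p = 0.0660, beside 11.5% of loci called and 10.7% wholly lower). In the d34 pools the XX and XY levels were 2.81 and 56.0 FPKM for SOX9, 0.341 and 29.8 FPKM for SOX10, 15.7 and 55.9 FPKM for DMRT1, 408 and 657 FPKM for PTGDS, and 161 and 93.9 FPKM for TESC. The direction of the sex difference in these pools was that of the older gonads for all 5.

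Genes that work with the members were taken from lists of pathway and cell type genes, of which up to 3 per list with the lowest adjusted p are named and any further names were chosen after their values were seen. Between XX and XY controls, 7 of 12 tested Sertoli list genes were lower in XX gonads at d37-39 and 9 of 12 at d44, beside 13.8% and 12% of all loci called lower. In XX DSD gonads against XY littermates it was 7 of 12 at d35, 7 of 12 at d37-39 and 8 of 12 at d41-44, beside 13.1%, 4.09% and 15.5% of loci. Between groups of XX gonads only 10 list genes passed the filter, so some of the 12 entered through XY gonads alone. TF was higher in XX controls at d37-39 (0.48, limma adjusted p = 0.00455) and VNN1 in XX DSD gonads at d41-44 (0.64, adjusted p = 0.0360), and the rest did not pass.

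Between XX DSD gonads and XX controls, the Sertoli list moved in both directions. At d37-39 CLU and FSHR were higher and COL9A3 lower of 10 tested, beside 13.8% of all loci called. At d41-44 5 of 10 were called, a share near the 48.5% of all loci. There FGF9, the growth factor that sustains SOX9, was 5.97 ± 0.28 FPKM in XX DSD gonads (SD, n = 6) and 4.38 ± 0.11 FPKM in XX controls (n = 3; log2 change 0.37, limma adjusted p = 3.35e-04), read at 1 of its 2 loci. TF, transferrin, was higher by 0.48 (adjusted p = 0.00109), FSHR, the follicle-stimulating hormone receptor, by 1.05 (adjusted p = 0.00186) and VNN1 by 0.67 (adjusted p = 0.0260). COL9A3, a collagen of early Sertoli cells in mice, was lower by both tests (-1.23 at d37-39, adjusted p = 0.00109, and -0.90 at d41-44, adjusted p = 3.97e-04). The median change over the tested list genes was 0.19 and 0.21 log2, against 0.09 and -0.09 for all loci.

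AMH had no locus of its own in the assembly and was read from the authors' annotated gene table. It was lower in XX DSD gonads than in XX controls at d37-39 (log2 change -1.24) and at d41-44 (-0.86; limma adjusted p = 0.0173 and 0.0143, beside 31.2% and 68.8% of genes called in that table). It was lower in XY littermates than in XY controls too (-1.51 and -1.12, adjusted p = 0.0127 and 0.0284, beside 11.6% and 27.7%). SOX9 in the same table gave 0.42 and -0.02 between XX DSD gonads and XX controls (adjusted p = 0.260 and 0.833).

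Of the prostaglandin list only PTGES, a prostaglandin E synthase, passed the filter, and at d37-39 it was lower in XX DSD gonads (0.727 against 1.75 FPKM in XX controls, -0.70, limma adjusted p = 0.0244) and not called at d41-44. Of 11 tested factors that act before or with SOX9, 1 was higher and 2 lower at d37-39, and 1 was higher and 5 lower at d41-44, beside 13.8% and 48.5% of all loci called (29.2% lower at d41-44). GADD45G, which relays the signal to Sry in mice, was lower at both ages (1.102 against 4.20 FPKM and 1.42 against 5.10 FPKM in XX controls, adjusted p = 1e-04 and 2.88e-05). GATA4, a zinc finger factor of gonadal somatic cells, was lower at d41-44 (36.7 against 58.8 FPKM, adjusted p = 6.9e-06), as was the chromatin protein CBX2 (7.05 against 11.2 FPKM, adjusted p = 3.87e-05). All 3 were lower in XY littermates of d41-44 too (GATA4 -0.53, CBX2 -0.60, GADD45G -1.47, limma adjusted p = 0.0309, 0.0469 and 0.0285).

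Of 9 tested pre-granulosa and ovary pathway genes, 3 were lower and 1 higher at d37-39 in XX DSD gonads, and 6 lower and 1 higher at d41-44, beside the same 13.8% and 48.5% of loci called. RSPO1, the secreted activator of WNT signalling, was 37.1 ± 7.04 FPKM in XX DSD gonads and 98.6 ± 8.03 FPKM in XX controls at d41-44 (-1.40, limma adjusted p = 6.19e-05). WNT4 (-1.07, adjusted p = 2.72e-05) and the ovarian factor FOXL2 (-0.96, adjusted p = 4.6e-05) were lower there as well.

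Markers of other cell types were read beside SOX10 and DMRT1. In XX controls the neural crest list, without SOX10, summed to 6.26 to 8.16 FPKM over 7 genes at d37-39, against 77.8 to 90.8 FPKM in XY controls, and ERBB3 made up most of the sum in XY controls (mean 2.73 FPKM in XX controls and 71.6 FPKM in XY controls). The glial and crest markers S100B, FOXD3 and CDH19 were at most 0.751 FPKM in every single-embryo library from d37. Between XY littermates and XY controls ERBB3 changed by -0.21 at d37-39 and -0.45 at d41-44 without a call (limma adjusted p = 0.367 and 0.0576). SOX10 changed there by -1.35 and -0.51, with the unstable calls given above. Whether ERBB3 and SOX10 differed in this was not tested. Among germ cell genes, beside DMRT1, DPPA3 (-1.41, limma adjusted p = 0.00316) and TFAP2C (-0.83, adjusted p = 0.0175) were lower in d37-39 gonads of the XX DSD group. That is 2 of 3 germ cell genes tested, beside 13.8% of all loci called, and none of 3 tested passed at d41-44. Their part in the DMRT1 values was not tested. Of the remaining lists at d41-44, 1 of 3 tested mesonephros genes and 1 of 4 Leydig genes were called, beside 48.5% of all loci. PAX8 of the mesonephros was lower (-0.63, limma adjusted p = 0.0215) and LHCGR of the Leydig cell higher (0.61, adjusted p = 0.0239) in XX DSD gonads. CDH16, also of the mesonephros list, went the other way without a call (1.05 to 1.31 FPKM against 0.413 to 0.986 FPKM in XX controls). No cartilage gene was called at either age.

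The loci most like each member were found by Pearson r of log2(FPKM + 1) over the 53 single-embryo libraries among 11058 candidate loci, a description that follows the split of the sexes. For SOX9 they were PLEKHB1 (r = 0.983), ART3 (0.979) and RASEF (0.979), and within the 32 XX libraries r was 0.52, 0.57 and 0.57. For SOX10 they were a locus named by its Ensembl number alone (0.967), its neighbour SF3A2 (0.962), which lies next to AMH in mammalian genomes, and TOX2 (0.960). DMRT1 was closest to TNNI1 (0.944), SCRG1 (0.929) and FABP3 (0.925). PTGDS was closest to RARRES2 (0.937), FXYD1 (0.931) and SLC3A2 (0.906), with r of 0.85 to 0.88 within XX libraries and 0.77 to 0.92 within XY libraries. TESC was closest to IGLON5 (0.939), ZNF703 (0.931) and ASIC1 (0.928).

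The members did not move as 1 group within a sex. Over the 32 XX libraries r of SOX9 was -0.07 with DMRT1, 0.04 with SOX10, -0.40 with PTGDS and -0.34 with TESC. Over the 21 XY libraries, which share the age trend, r of DMRT1 was 0.78 with TESC and -0.70 with PTGDS. These libraries also differ in age, pedigree and depth, and the values are descriptions.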

How the data were processed

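For the 55 libraries the authors deposited FPKM values over 24581 genes of the annotation and, in another table, over 58781 loci assembled from the reads. Libraries were polyA-selected, unstranded and single-end. The submitters' processing notes name cutadapt 1.5, TopHat2 2.0.13, Cufflinks 2.2.1 and canFam3. Embryos are separate animals. Members, gene lists and tests were chosen with earlier results of these data known. Comparisons were made on log2(FPKM + 1) with limma 3.58.1 (R 4.3.3, eBayes with trend) on the groups compared, over loci with a mean of at least 1 FPKM in a group, 17 comparisons in all. P-values were adjusted by the Benjamini-Hochberg method over all loci, and members under the filter were tested by exact permutation, two-sided. Fold changes on this scale understate those of low genes. Named genes were the members, AMH, FGF9, from every list up to 3 called genes, ranked by adjusted p in XX DSD against XX control gonads, and the 3 loci most like each member. Some list genes had more than 1 locus of that name (FGF9 and FOXL2 2 each, PAX8 3). For these only 1 locus was read, chosen by annotated transcripts and then by number of transcripts, and the others are not described. Some markers of the neural crest list are not reported here and were left out of its sums. Relative depth was read from the steps between low FPKM values. The fit was also run on simulated data with independent libraries, without litters or depth differences, so that run says nothing about either. The alternatives were other scalings, pseudocounts (0.1), filters (4 FPKM or none), variance models, litter blocks, age groups, tables and leaving out each library.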

Additional observations from a re-analysis of the deposited data

Results flagged for a closer look

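Of 42 sets of values of 1 member in 1 group of 4 to 10 embryos, 8 had 1 embryo far from the rest, where chance gives about 1 in 20. SOX9 was 92.8 FPKM in XY control A1095 of d37-39 (next highest 73.7 FPKM) and 10.4 FPKM in XX DSD gonad C3512 of d37-39 (next 5.23 FPKM). SOX10 was 1.63 FPKM in XX DSD gonad C3572 of d35 (next 0.654 FPKM) and 0.559 FPKM in XX control A1086 of d37-39 (next 0.207 FPKM). DMRT1 was 9.73 FPKM in XX DSD gonad C3525 of d35 (next 6.93 FPKM), and it was lowest at 3.27 FPKM in XX control A1098 (next 5.22 FPKM) and at 16.9 FPKM in XY control A1091 (next 20.3 FPKM), both of d37-39. PTGDS was 762 FPKM in XX DSD gonad C3694 of d41-44 (next 573 FPKM).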

How the results depend on the processing

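Of the log2 changes called in the main comparisons none reversed under any setting, with 301 of 330 still called over the settings and 300 of 335 with 1 library left out. The counts of members called changed by more than 1.5 times in these cases. XX DSD against XX control at d37-39 (0 called) gave 2 by upper-quartile scaling, 2 by quantile normalization, 1 with all libraries in 1 fit, 1 with the 3 embryos labelled d41 moved to d37-39, and 3 at d37 alone (SOX9 1.44). XY littermate against XY control at d37-39 (1 called) gave 2 by quantile normalization and 0 with no filter, no trend, litter as a random block, d39 alone, 1 mean per litter, or without the 4 XY libraries. The same at d41-44 (1 called) gave 0 with a pseudocount of 0.1, no filter, no trend or the 3 embryos moved, 3 with litter as a random block (PTGDS and TESC added) and 2 over named loci. XX DSD against XY littermate at d37-39 (5 called) gave 3 by quantile normalization and 3 without the 4 XY libraries. XX DSD at d37-39 against d35 (1 called) gave 2 by upper-quartile scaling and 2 by quantile normalization, and d41-44 against d37-39 (0 called) gave 1 with all libraries and 1 over named loci. XY littermates at d37-39 against d35 (1 called) gave 2 by upper-quartile scaling, a pseudocount of 0.1, a filter of 4 FPKM or named loci, 3 with all libraries, and 0 by quantile normalization or without the 4 libraries, and d41-44 against d37-39 (0 called) gave 1 with all libraries. XX controls at d44 against d37-39 (1 called) gave 0 by quantile normalization, with no filter or with no trend, and the interaction at d37-39 (0 called) gave 1 with all libraries.

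With 1 library left out the count was 0 to 1 for XX DSD at d41-44 against d37-39 (TESC called, adjusted p = 0.0220, without C3512), XY littermate against XY control at d37-39 and XX controls at d44 against d37-39, 0 to 0 for XY littermate against XY control at d41-44, 4 to 5 for XX DSD against XY littermate at d35 and d37-39, and 1 to 2 for XY littermates at d37-39 against d35 (SOX9 added without C3638, SOX10 without C3516). SOX9 in XX DSD against XX control was 0.22 to 0.52 at d37-39 and -0.11 to -0.03 at d41-44.

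Changes of sign came only among changes that were not called, mostly from scaling. SOX9 in XX DSD against XX control became -0.15 at d39 alone (d37-39) and 0.063 by quantile normalization (d41-44). In XY littermates against XY controls at d37-39 upper-quartile scaling and quantile normalization gave -0.62 and -0.83 for SOX9 and -0.68 and -0.78 for TESC, which was -0.18 with the 3 embryos moved and -0.12 to 0.14 with 1 library left out. In XX DSD gonads SOX9 at d37-39 against d35 was -0.058 by quantile normalization, and at d41-44 against d37-39 SOX9 was 0.085 and 0.13 by the 2 scalings and -0.22 to 0.073 with 1 library left out (0.073 without C3512), PTGDS 0.093 and TESC 0.17 by quantile normalization. In XY littermates at d37-39 against d35 the 2 scalings gave -0.53 and -0.39 for SOX9 and upper-quartile scaling -0.19 for PTGDS, and at d41-44 against d37-39 they gave 0.56 and 0.75 for SOX9 and 0.30 and 0.30 for DMRT1, with SOX10 -0.30 without the 4 libraries. PTGDS in XX controls at d44 against d37-39 was -0.069 by quantile normalization. In the interaction at d37-39 the 2 scalings gave 0.19 and 0.32 for DMRT1 and 0.20 and 0.020 for TESC, and PTGDS was 0.39 by upper-quartile scaling and 0.22 without the 4 libraries. At d41-44 it was -1.03 for SOX10 with a pseudocount of 0.1, 0.042 for DMRT1 by quantile normalization, and with 1 library left out -0.28 to 0.11 for DMRT1 and -0.36 to 0.079 for PTGDS. The cause of these shifts was not tested.

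Named loci alone and leaving out the 4 XY libraries were chosen after seeing the data. The annotated gene table was used for SOX9 and AMH alone. The embryo numbers in the labels pair no embryos, but litters held both sexes. With litter as a fixed block, XX against XY gonads kept all 5 members called at d37-39 and d41-44 of the pedigree and in controls of d37-39, and 4 of 5 at d35, where PTGDS was lost (-0.33, adjusted p = 0.512). Controls of d44 are 1 litter. Depth and gestational day differ between pedigree and controls at d41-44, and without counts no counting error can be given.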
